A study of Homo sapiens with 9 samples.

Results

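The genes described here are the 72 rows, of 37118 in the deposited table, that carry a histone gene name and at least 1 protein-coding transcript. They were chosen by name alone, with no use of their levels. The replication-dependent genes of the histone clusters made up 61 of them, 50 on chromosome 6 and 11 on chromosome 1, and are called clustered genes here. The other 11 are called replacement genes, among them the linker histone genes H1-7, H1-8 and H1-10, the H2A.Z genes H2AZ1 and H2AZ2, and the H3 genes H3-2, H3-3A, H3-3B, H3-4 and H3-5. Their class was set by current name, and for H3-2 and H3-4 it rests on that name alone. The study gave metformin, a biguanide used against type 2 diabetes, at 0, 20 or 40 mM to A375 cells, a human melanoma line labelled as wild type, and each dose had 3 libraries (9 in all). The sources used here give neither the length of treatment nor whether the 3 libraries of a dose came from separate cultures. The p-values therefore measure only how far these libraries spread, and that spread may be technical. RNA was captured on oligo(dT) beads, which hold messages with a poly(A) tail, and made into strand-marked libraries.

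Histones are the proteins that DNA is wound around in chromatin. The clustered genes supply the bulk of H1, H2A, H2B, H3 and H4 while DNA is replicated, and their messages normally end in a short stem-loop in place of a poly(A) tail, where the stem-loop binding protein SLBP sits. Replacement genes are transcribed through the whole cell cycle, carry introns in most cases and make polyadenylated messages, and their products (H3.3, H2A.Z) are put into chromatin outside replication. A library made from poly(A)+ RNA therefore holds replacement messages as ordinary messages and, of the clustered genes, mainly those transcripts that were polyadenylated.

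The libraries held 65738242 to 75629413 counts each, and the 72 genes took 0.125% to 0.168% of them. Mitochondrial genes took 2.76% to 3.53% of counts at 0 mM, 3.63% to 3.77% at 20 mM and 3.01% to 4.36% at 40 mM. Replicate 3 of 40 mM stood apart: its chi-square per gene against the other 40 mM libraries was 42.9 and 35.5, where every other pair of libraries of a dose lay between 10.1 and 18.4. It was also the shallowest library and the one with the highest mitochondrial share, and results that rest on it are given with and without it. SOX10 at 95.8 FPKM and CSPG4 at 54.6 FPKM, both typical of melanoma, were high, and MITF stood at 2.95 FPKM. The pigment genes MLANA, PMEL, TYR, DCT and TYRP1 stood between 0.002 and 0.388 FPKM. Of genes typical of other cell types, the keratinocyte gene KRT14 stood at 7.52 FPKM and the fibroblast gene LUM at 4.52 FPKM. The others looked at stood at 0.413 FPKM or below, and the leukocyte gene PTPRC was listed at 0. FPKM is the authors' level per length, the fragments per kilobase of transcript scaled to the depth of the library.

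The stem-loop is the feature that sets the clustered messages apart, so it was looked for in the transcripts of GENCODE 29 on the sense strand. The letters searched were GGCTCT or GGCCCT, any 4 bases, and then the pairing arm AGAGCC or AGGGCC, where GGCTCT could take either arm and GGCCCT the arm AGGGCC alone. Of the 59 clustered genes found in that annotation, 28 had at least 1 transcript with it and 31 had none. Of those 31, 26 were annotated by their coding part alone, which leaves no room for the stem-loop. Among replacement genes 1 of 11 held it, H3-4, a testis-linked H3 gene. The share over all 19684 protein-coding genes was 0.412%, and over the 19615 that are not among the 72 it was 0.265%. The commonest form was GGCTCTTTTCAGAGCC, in 15 clustered genes. The sites of the clustered genes described below are printed from GENCODE 29 (GRCh38), with the 16 bases of the stem-loop in capitals. The H2AC18 site lies at chr1:149842218-149842243 (minus strand), that of H3C14 at chr1:149840687-149840712 (minus), that of H4C14 at chr1:149833027-149833052 (plus), that of H2AC6 at chr6:26124664-26124689 (plus), that of H2BC5 at chr6:26158582-26158607 (plus), that of H4C9 at chr6:27139649-27139674 (plus) and that of H4C11 at chr6:27824454-27824479 (plus).
H2AC18: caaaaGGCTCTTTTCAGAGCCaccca
H3C14: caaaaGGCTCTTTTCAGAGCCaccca
H4C14: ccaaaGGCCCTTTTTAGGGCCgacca
H2AC6: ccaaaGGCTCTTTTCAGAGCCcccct
H2BC5: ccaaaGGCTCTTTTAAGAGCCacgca
H4C9: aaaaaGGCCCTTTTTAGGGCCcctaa
H4C11: taaaaGGCCCTTTTCAGGGCCaccct

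The transcripts differed in what followed the stem-loop. In 8 of the 28 genes every transcript with the stem-loop ended within 100 bases of this window, such as H4C11 with 6 more bases and H2AC18 with 35. In the other 20 a transcript ran on for more than 100 bases, up to 1862, such as H2AC6 with 1128 and H3C14 with 1154. The median level was 0.912 FPKM over the 8 genes that ended there, 0.305 FPKM over the 20 that ran on and 0.235 FPKM over the 31 with no match. The median total over the 9 libraries was 292 counts for the 8 genes, 414.5 for the 20 and 86 for the 31. The order of the genes that ended and those that ran on thus differed between FPKM, which is per length, and counts. Levels and counts are those of the deposited table, where only 32 of the 72 genes have the same start and end as in GENCODE 29. These groups may therefore not describe the gene models that were counted.

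Promoters were read from RefSeq (GRCh38.p14) as the 250 bases before a gene's start, which were found for 57 clustered and 8 replacement genes. The TATA box TATAAA, searched on the sense strand, was present in 32 of 57 clustered genes (56.1%), in 4 of 8 replacement genes and in 6.80% of 35116 promoters of all genes. CCAAT, searched on both strands, was present in 49 of 57 (86.0%), 7 of 8 and 32.0%. The octamer ATTTGCAT, which the factor POU2F1 (OCT1) binds, was present on either strand in 24 of 57 clustered genes (42.1%), 1 of 8 replacement genes and 1.63% of all promoters. It was a feature of 13 of 16 H2B and 10 of 14 H2A genes, and of 1 of 27 other clustered genes. Shown here are the promoters of the most abundant clustered gene, H2BC12 (chr6:27146859-27147108, minus strand), of a chromosome 1 gene that was higher at 40 mM than at 20 mM, H2AC18 (chr1:149842751-149843000, minus), and of the replacement gene that holds an octamer, H3-3B (chr17:75779780-75780029, minus). The motifs are in capitals, and ATTGG and ATGCAAAT are the reverse complements of CCAAT and the octamer.
H2BC12: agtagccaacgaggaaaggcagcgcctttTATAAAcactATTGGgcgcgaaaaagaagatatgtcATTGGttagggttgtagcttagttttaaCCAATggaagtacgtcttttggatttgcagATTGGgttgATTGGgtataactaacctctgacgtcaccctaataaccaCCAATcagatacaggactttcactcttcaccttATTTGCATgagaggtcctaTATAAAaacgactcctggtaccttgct
H2AC18: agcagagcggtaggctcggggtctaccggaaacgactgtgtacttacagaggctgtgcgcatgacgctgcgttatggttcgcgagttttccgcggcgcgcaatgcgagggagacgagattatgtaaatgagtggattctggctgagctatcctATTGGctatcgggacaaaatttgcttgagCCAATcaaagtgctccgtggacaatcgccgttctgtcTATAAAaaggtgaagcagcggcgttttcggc
H3-3B: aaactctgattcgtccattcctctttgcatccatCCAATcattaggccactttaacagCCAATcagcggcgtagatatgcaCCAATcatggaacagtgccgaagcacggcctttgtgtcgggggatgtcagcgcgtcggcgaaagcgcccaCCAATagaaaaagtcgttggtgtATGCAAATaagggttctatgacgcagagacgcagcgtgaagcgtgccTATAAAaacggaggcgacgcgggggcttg

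Levels separated the more abundant replacement genes from all clustered genes. The other replacement genes stood at or below H3-2, at 1.81 FPKM, within the span of the clustered genes or under it. The median clustered gene stood at 0.293 FPKM over the 9 libraries (range 0.0033 to 17.1), against 19.7 FPKM (0.0024 to 157) for the median replacement gene. A mean of at least 1 FPKM, which was needed to enter the test of dose, was reached by 10 of 61 clustered genes and 7 of 11 replacement genes, so the tested genes are the most abundant of their class and not the whole of it. A mean of at least 0.1 FPKM was reached by 50 and by 8. In counts, 41 clustered genes were seen in all 9 libraries and 20 had no count in at least 1 library, and 20 had fewer than 100 counts over the 9 libraries together. Clustered H3 genes were low as a family, with 0 of 12 at 1 FPKM and the highest, H3C3, at 0.644 FPKM. The 4 replacement genes under 1 FPKM are those linked to germ cells: H1-7 of spermatids and H1-8 of oocytes had 3 and 4 counts in all, each in a single library, H3-4 had 6, and H3-5 stood at 0.559 FPKM. The clustered genes with the highest level under the threshold were H4C15 at 0.905, H4C14 at 0.873, H2BC21 at 0.818, H2BC4 at 0.763 and H3C3 at 0.644 FPKM.

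**Figure D1:**
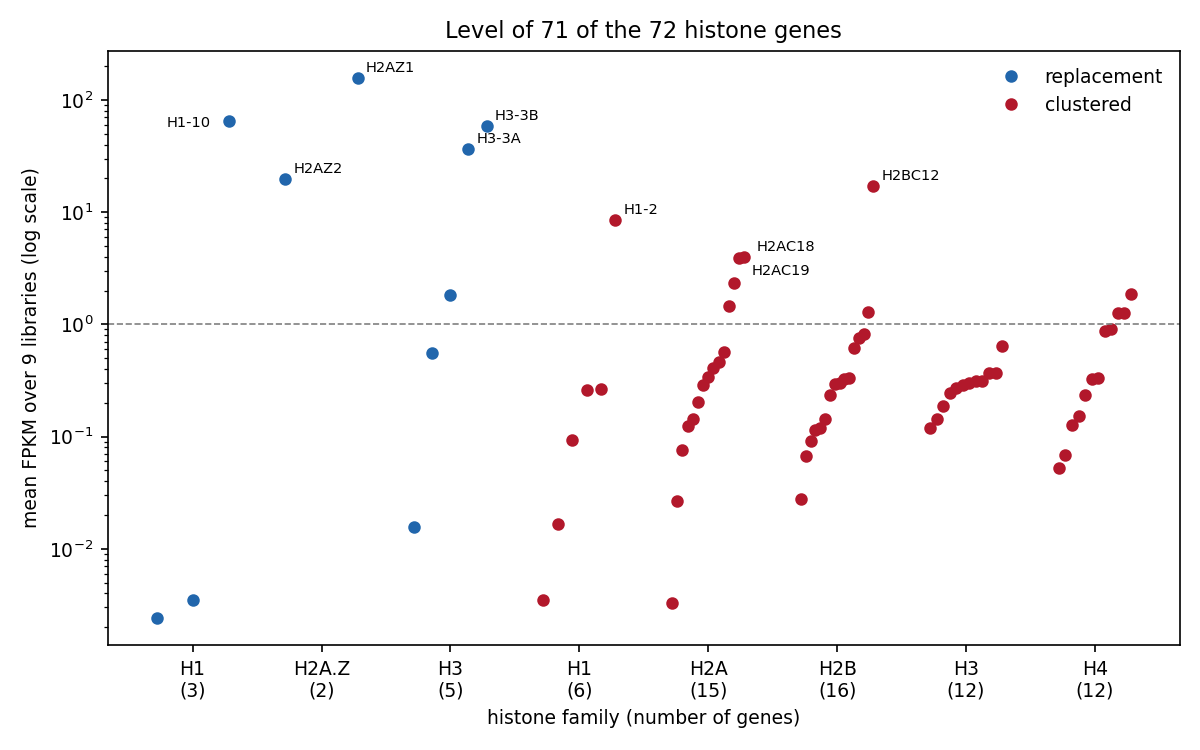
Mean level of 71 of the 72 genes over the 9 libraries (log axis, FPKM) by class and family, with 1 point per gene, genes over 3 FPKM named and a dashed line at 1 FPKM. Above 18 FPKM stand 5 replacement genes, while the highest clustered gene, H2BC12, stands at 17.1 FPKM and most clustered genes below 1 FPKM.

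As sums the classes followed dose differently. They are given in CPM, counts scaled to the same total in every library. The 11 replacement genes together took 1626, 1584 and 1559 CPM in the 0 mM libraries, 1486, 1575 and 1618 at 20 mM, and 1406, 1413 and 1198 at 40 mM. All 40 mM libraries lay below all the others, and the lowest was replicate 3. The 61 clustered genes together took 55.0, 55.3 and 51.0 CPM at 0 mM, with 39.5, 39.8 and 42.1 at 20 mM and 59.4, 59.4 and 49.5 at 40 mM. Here the 20 mM libraries were the lowest, and the 40 mM libraries overlapped those at 0 mM through replicate 3. As a share of the counts of the 72 genes the clustered genes made up 3.27% ± 0.10 at 0 mM, 2.53% ± 0.06 at 20 mM and 4.02% ± 0.05 at 40 mM (SD, n = 3 each), and no library of a dose overlapped those of another, replicate 3 of 40 mM included (3.97%). These sums are descriptions with no test, since a few abundant genes carry them. In bulk libraries fewer cells in S phase and less message per cell cannot be told apart.

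**Figure D2:**
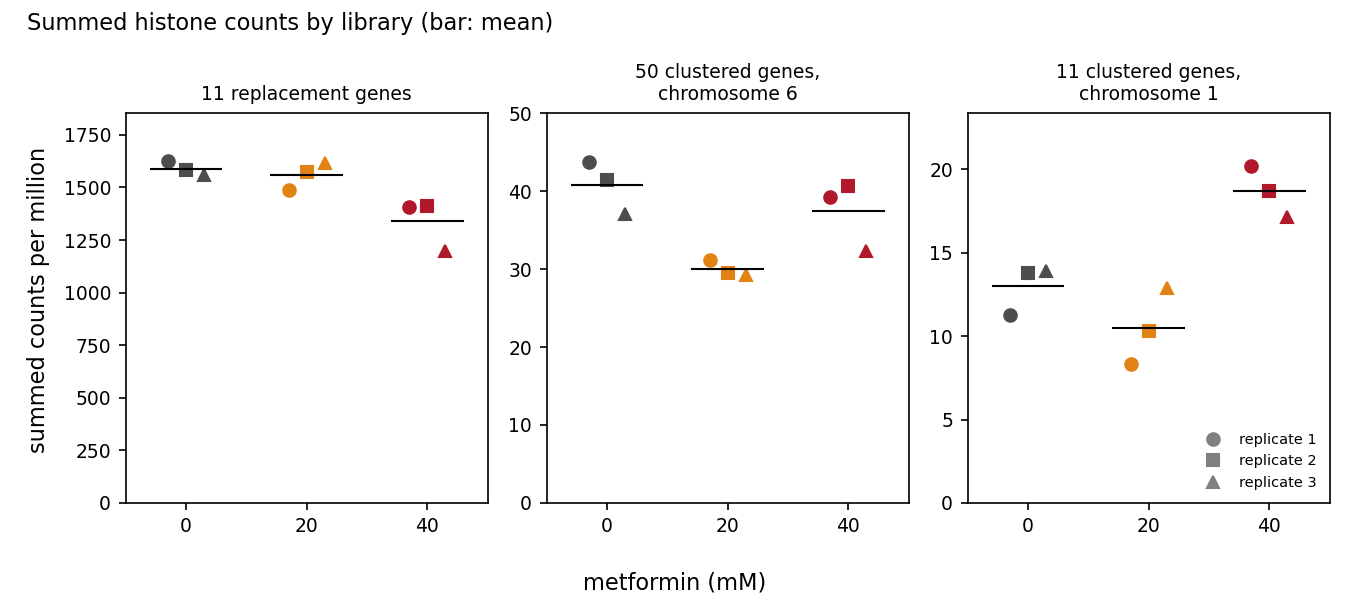
Summed CPM of the replacement genes, the clustered genes on chromosome 6 and those on chromosome 1 in each library by metformin dose in mM (axes from 0, bars are means, marker shape is the replicate number). The replacement sum is lowest at 40 mM, the chromosome 6 sum is lowest at 20 mM, and the chromosome 1 sum is highest at 40 mM, between 17.1 and 20.2 CPM.

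Dose was tested by quasi-likelihood in edgeR on the counts of all 12394 genes with a mean of at least 1 FPKM. P-values were adjusted over all of them by Benjamini-Hochberg, and an adjusted p under 0.05 made a call. Changes printed with an error are log2 fold changes with their SE, and below 0 the level was lower at the dose named first. It called 31.6% of all genes at 20 mM against 0 mM (16.3% higher, 15.2% lower), 56.2% at 40 mM against 0 mM (28.8% higher, 27.4% lower) and 29.3% at 40 mM against 20 mM (14.3% higher, 15.1% lower). Comparisons at 20 and 40 mM share the 0 mM libraries. Among the 7 replacement genes tested, 1 was higher and 1 lower at 20 mM against 0 mM, 1 was higher and 4 lower at 40 mM against 0 mM, and 1 was higher and 5 lower at 40 mM against 20 mM. Their median log2 fold changes were -0.053, -0.21 and -0.21 in these comparisons, where the medians of all genes were 0.001, -0.001 and 0. Among the 10 clustered genes tested, 4 were lower at 20 mM against 0 mM, 3 were lower at 40 mM against 0 mM and 3 were higher at 40 mM against 20 mM. Their medians were -0.49, -0.23 and 0.30. For clustered genes the opposite directions had 0 calls by edgeR and by DESeq2 in each comparison. Without replicate 3 of 40 mM, the clustered genes called at 40 mM against 0 mM were 2 higher and 0 lower, with a median of -0.059. Without that library the replacement median at 40 mM against 20 mM was -0.12, with 1 higher and 4 lower, and 5 clustered genes were lower at 20 mM against 0 mM. At an unadjusted p under 0.05 edgeR had 0 clustered genes higher at 20 mM, 2 higher at 40 mM against 0 mM and 1 lower at 40 mM against 20 mM, and limma on log2(FPKM + 1) called 0, 2 and 1. With so few genes, a count of 4 of 10 beside a background of 31.6%, or of 3 of 10 beside 56.2% or 29.3%, is no result about the class, and single genes are given instead.

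**Figure D3:**
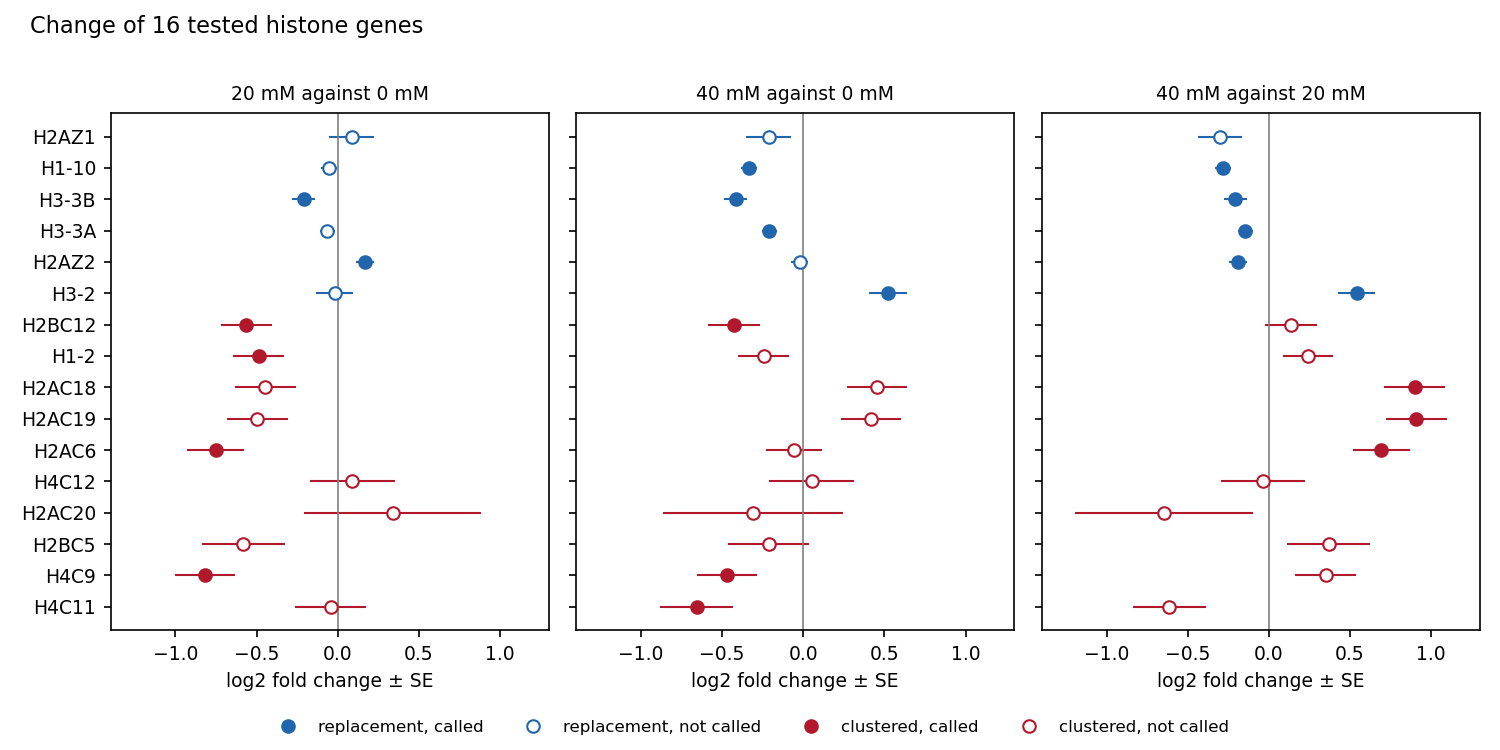
Log2 fold change (tested by edgeR, bars are standard errors) of 16 of the 17 tested genes in the 3 comparisons, with replacement genes in blue above clustered genes in red, filled where the adjusted p was under 0.05. Replacement genes other than H3-2 lie at or below 0 in both comparisons at 40 mM, and clustered genes have the wider errors.

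The linker histone gene H1-10 fell at 40 mM. H1-10 (chr3:129314771-129316286, minus), which encodes the linker histone H1x, stood at 67.8, 70.7 and 71.9 FPKM at 0 mM, with 62.8, 68.9 and 71.6 at 20 mM and 56.3, 56.9 and 57.6 at 40 mM. Its 40 mM libraries lay below all others with an SD of 0.626 FPKM. The log2 fold change was -0.34 ± 0.05 (adjusted p = 0.000197) at 40 mM against 0 mM, -0.28 ± 0.05 (adjusted p = 0.0023) at 40 mM against 20 mM and -0.053 ± 0.05 (adjusted p = 0.455) at 20 mM against 0 mM. H1-10 shares 895 bases with the antisense gene H1-10-AS1, which had 834 counts in all 9 libraries together.

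Both H3.3 genes fell at 40 mM against 0 mM. H3-3A and H3-3B encode the same protein, the H3 variant laid down at active genes and outside S phase. H3-3B (chr17:75776434-75779780, minus) stood at 67.4, 66.6 and 64.8 FPKM at 0 mM, with 55.9, 56.7 and 59.7 at 20 mM and 54.3, 54.2 and 44.0 at 40 mM. H3-3A (chr1:226061851-226072001, plus) stood at 38.3, 38.8 and 38.3 FPKM at 0 mM, with 35.9, 37.0 and 37.7 at 20 mM and 35.0, 35.6 and 31.6 at 40 mM. For both genes all libraries with metformin were below all at 0 mM, and all 40 mM libraries were below all at 20 mM. Replicate 3 of 40 mM was the lowest. The log2 fold change at 40 mM against 0 mM was -0.42 ± 0.07 for H3-3B (adjusted p = 0.000483) and -0.21 ± 0.05 for H3-3A (adjusted p = 0.00296), and without replicate 3 of 40 mM they remained called at -0.32 and -0.16. At 20 mM against 0 mM H3-3B was lower by a narrow margin, -0.21 ± 0.07 (adjusted p = 0.0429), a call that ended when any 0 mM or 20 mM library was left out (adjusted p = 0.0625 to 0.122), while H3-3A had -0.064 ± 0.05 (adjusted p = 0.33). Between 40 mM and 20 mM both passed narrowly, H3-3B at -0.21 ± 0.07 (adjusted p = 0.0475; -0.12 without replicate 3 of 40 mM, adjusted p = 0.0375) and H3-3A at -0.14 ± 0.05 (adjusted p = 0.039). These calls ended without any 0 mM or 20 mM library (adjusted p = 0.062 to 0.149 for H3-3B and 0.0517 to 0.124 for H3-3A), and that of H3-3A also without replicate 3 of 40 mM (-0.10, adjusted p = 0.0565).

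H2A.Z is the H2A variant found beside promoters. H2AZ1 (chr4:99948086-99950355, minus), the most abundant histone gene here, stood at 172, 160 and 149 FPKM at 0 mM, with 157, 175 and 179 at 20 mM and 161, 160 and 104 at 40 mM. A single library, replicate 3 of 40 mM, lay far below the rest. No comparison called it: the log2 fold change was 0.085 ± 0.14 (adjusted p = 0.674) at 20 mM against 0 mM, -0.21 ± 0.14 (adjusted p = 0.205) at 40 mM against 0 mM and -0.30 ± 0.14 (adjusted p = 0.126) at 40 mM against 20 mM. Without replicate 3 of 40 mM the values at 40 mM were -0.037 against 0 mM and -0.12 against 20 mM. H2AZ2 (chr7:44826791-44848083, minus) stood at 18.9, 18.9 and 18.9 FPKM at 0 mM, with 20.3, 21.8 and 21.7 at 20 mM and 19.9, 20.0 and 17.3 at 40 mM. All 20 mM libraries were above all others. It was higher at 20 mM against 0 mM by 0.17 ± 0.05 (adjusted p = 0.0378) and lower at 40 mM against 20 mM, with a log2 fold change of -0.19 ± 0.05 (adjusted p = 0.0237). The first call ended without any 0 mM library or without replicate 2 or 3 of 20 mM (adjusted p = 0.0743 to 0.122), and the second without replicate 2 or 3 of 20 mM (adjusted p = 0.0873 and 0.0808).

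H3-2, a replacement gene by its current name alone, rose at 40 mM. It lies on chromosome 1 (chr1:143894544-143905966, minus), and its older symbol has the form used for genes of the histone clusters. The annotation searched for the stem-loop lists its transcripts as processed transcripts with a coding length of 0. Whether H3-2 belongs with the replacement genes was not tested. It is the gene counted as higher among them in the comparisons at 40 mM, and it enters their medians. It stood at 1.52, 1.50 and 1.70 FPKM at 0 mM, with 1.58, 1.69 and 1.40 at 20 mM and 2.50, 2.28 and 2.16 at 40 mM. Every 40 mM library was above every other library. The log2 fold change was 0.52 ± 0.11 (adjusted p = 0.00268) at 40 mM against 0 mM and 0.54 ± 0.11 (adjusted p = 0.00586) at 40 mM against 20 mM, and -0.019 ± 0.12 (adjusted p = 0.917) at 20 mM against 0 mM. Most of the row, 10107 bases, overlaps the gene H2BP2 on the same strand.

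**Figure D4:**
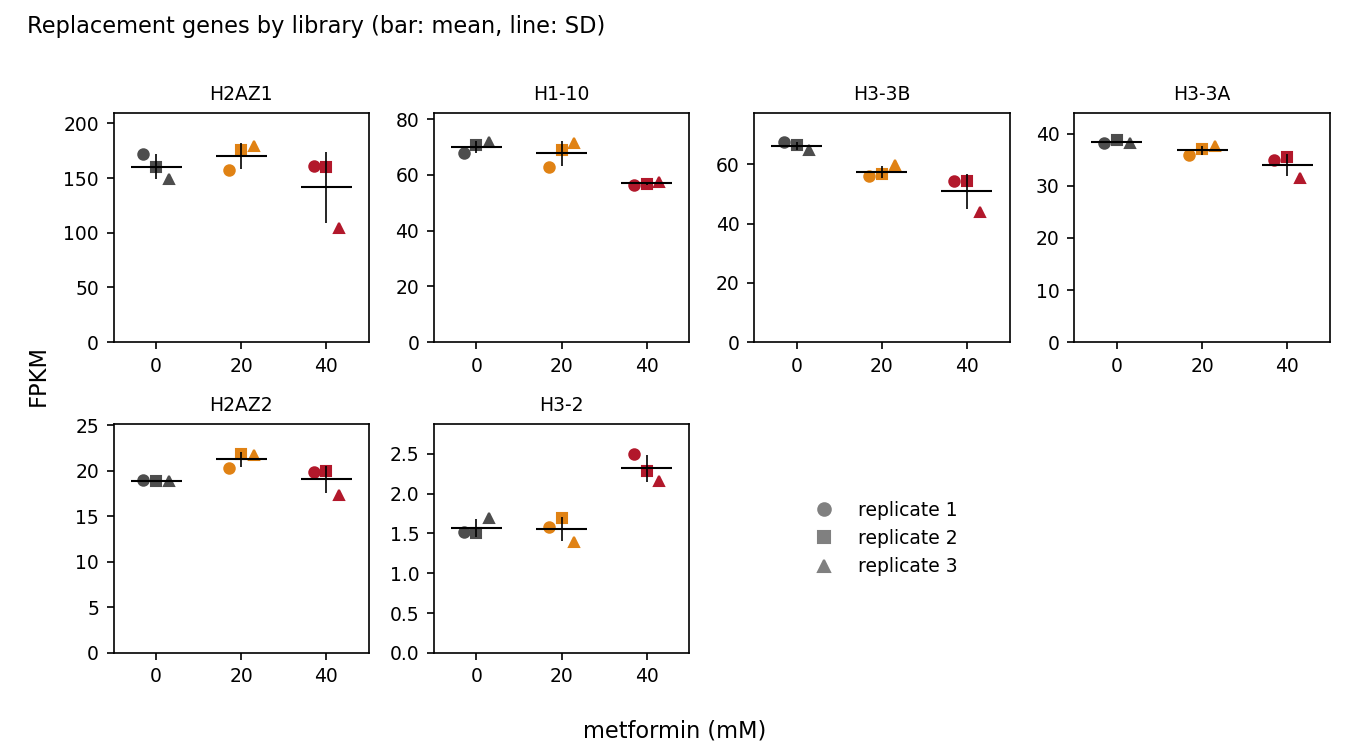
FPKM of 6 of the 7 tested replacement genes in each library by metformin dose in mM (axes from 0, bars are means, lines are SD, n = 3, marker shape is the replicate number). H1-10, H3-3A and H3-3B are lowest at 40 mM, H3-2 is highest there, and H2AZ1 has 1 low library, replicate 3 of 40 mM at 104 FPKM.

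Of the clustered genes on chromosome 6, those that passed the test at 20 mM were lower than at 0 mM. H2BC12 (chr6:27146361-27146855, minus), which encodes an H2B, was the most abundant clustered gene, at 23.4, 20.6 and 19.1 FPKM at 0 mM, with 14.5, 14.6 and 13.8 at 20 mM and 17.6, 18.8 and 11.9 at 40 mM. All libraries with metformin lay below all at 0 mM, and replicate 3 of 40 mM was the lowest of the 9. The log2 fold change was -0.56 ± 0.16 (adjusted p = 0.0204) at 20 mM against 0 mM and -0.43 ± 0.16 (adjusted p = 0.0391) at 40 mM against 0 mM. The first call ended without replicate 1 of 0 mM or any 20 mM library (adjusted p = 0.051 to 0.0767). The second ended without replicate 1 or 2 of 0 mM, any 20 mM library or replicate 3 of 40 mM (adjusted p = 0.0505 to 0.137), and its value without replicate 3 of 40 mM was -0.25 (adjusted p = 0.0872). H1-2 (chr6:26055740-26056470, minus), the linker histone H1.2, stood at 9.42, 10.1 and 10.2 FPKM at 0 mM, with 7.82, 6.06 and 7.27 at 20 mM and 6.94, 10.3 and 8.30 at 40 mM. It was lower at 20 mM against 0 mM, with a log2 fold change of -0.49 ± 0.16 (adjusted p = 0.0348), a call that ended without any 0 mM library or without replicate 2 or 3 of 20 mM (adjusted p = 0.0634 to 0.126). Its libraries at 40 mM overlapped those at 0 mM (-0.25 ± 0.15, adjusted p = 0.2). That value passed when replicate 2 of 40 mM was left out (-0.40, adjusted p = 0.0464).

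The firmest changes on chromosome 6 were those of H2AC6 and H4C9 at 20 mM. H2AC6 (chr6:26124145-26139116, plus), an H2A gene, stood at 3.23, 2.83 and 2.14 FPKM at 0 mM, with 1.61, 1.59 and 1.69 at 20 mM and 2.86, 2.99 and 2.24 at 40 mM. Its 20 mM libraries were below all others, while those at 40 mM and 0 mM overlapped. It fell at 20 mM against 0 mM, with a log2 fold change of -0.75 ± 0.18 (adjusted p = 0.00833) and was higher at 40 mM against 20 mM by 0.69 ± 0.18 (adjusted p = 0.0137), with -0.058 ± 0.17 (adjusted p = 0.799) at 40 mM against 0 mM. H4C9 (chr6:27138588-27139881, plus), an H4 gene, stood at 1.57, 1.84 and 1.55 FPKM at 0 mM, with 0.876, 1.12 and 0.804 at 20 mM and 1.43, 1.15 and 1.07 at 40 mM. It fell at 20 mM against 0 mM, with a log2 fold change of -0.82 ± 0.19 (adjusted p = 0.00739), and no fit without 1 library ended this call or that of H2AC6. Its call at 40 mM against 0 mM stood at the threshold (-0.47 ± 0.18, adjusted p = 0.0495), and 7 of the 9 fits without 1 library ended that call (all but those without replicate 2 of 20 mM and replicate 1 of 40 mM; adjusted p up to 0.151).

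The other chromosome 6 genes tested were less abundant or more variable. H4C11 (chr6:27824092-27824480, plus), a further H4 gene with 23 to 56 counts a library, stood at 1.68, 1.45 and 1.20 FPKM at 0 mM, with 1.36, 1.41 and 1.43 at 20 mM and 1.09, 0.931 and 0.766 at 40 mM. All 40 mM libraries were below all others, and it was lower at 40 mM against 0 mM, with a log2 fold change of -0.66 ± 0.22 (adjusted p = 0.0274). DESeq2 did not make this call (adjusted p = 0.104), and it ended without replicate 1 or 2 of 0 mM or replicate 2 or 3 of 40 mM (adjusted p = 0.0593 to 0.104). H2BC5 (chr6:26158146-26171349, plus), an H2B gene, stood at 1.67, 1.43 and 1.45 FPKM at 0 mM, with 1.03, 0.703 and 1.31 at 20 mM and 1.74, 1.06 and 1.21 at 40 mM. H4C12 (chr6:27831174-27831560, minus), an H4 gene, stood at 2.09, 1.95 and 1.33 FPKM at 0 mM, with 1.94, 1.81 and 1.99 at 20 mM and 1.88, 2.52 and 1.32 at 40 mM. Neither passed in any comparison, with the smallest adjusted p, 0.108, for H2BC5 at 20 mM against 0 mM. The promoters of H4C11 and H4C12 are nearly the same sequence. Transcripts were compared only for the chromosome 1 pairs described below, so whether H4C11 and H4C12 share reads was not tested.

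**Figure D5:**
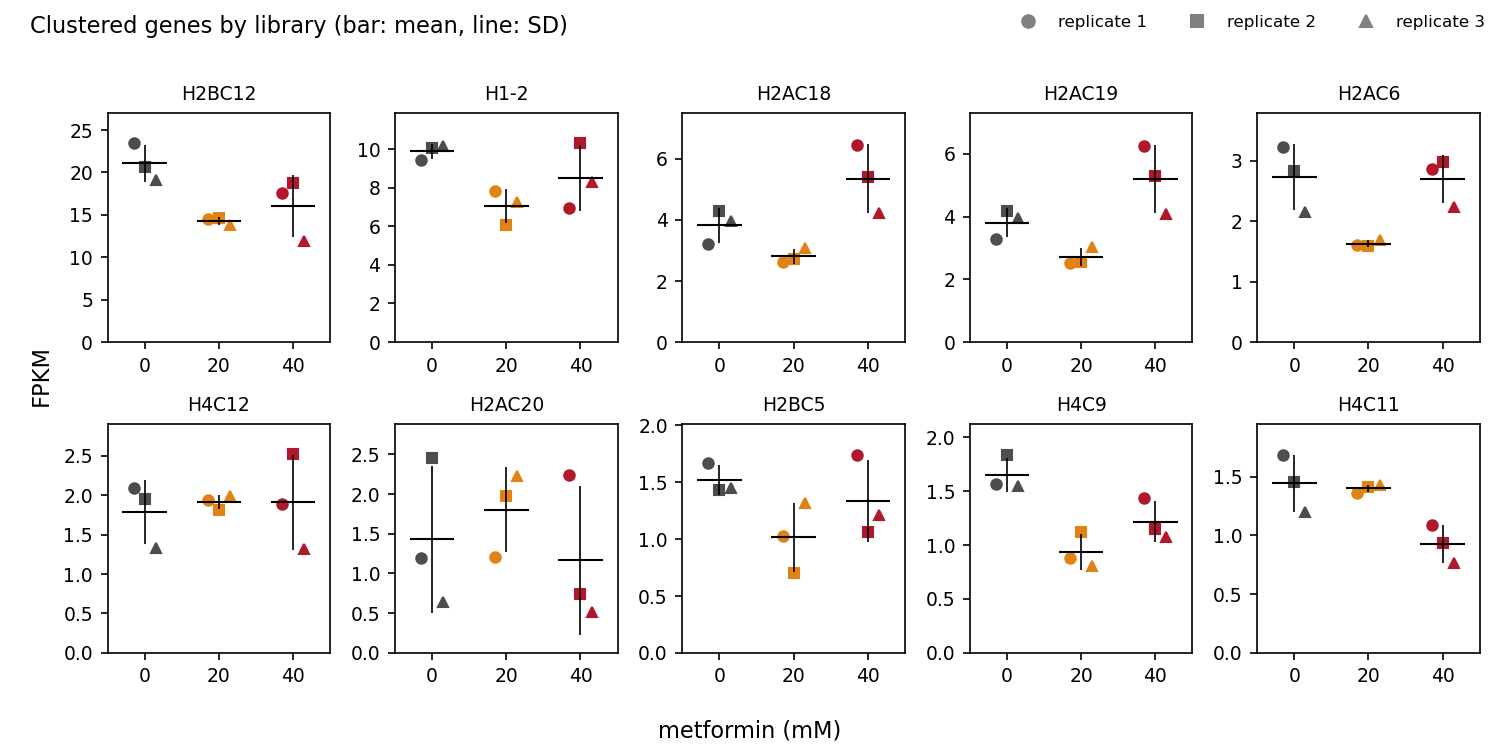
FPKM of the 10 tested clustered genes in each library by metformin dose in mM (axes from 0, bars are means, lines are SD, n = 3, marker shape is the replicate number). H2AC6 and H4C9 are lowest at 20 mM, H2AC18 and H2AC19 are highest at 40 mM, and the libraries of H2AC20 overlap at every dose.

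On chromosome 1 the H2A pair H2AC18 and H2AC19 was higher at 40 mM than at 20 mM. H2AC18 (chr1:149842188-149842736, minus) stood at 3.20, 4.30 and 3.97 FPKM at 0 mM, with 2.62, 2.73 and 3.08 at 20 mM and 6.45, 5.40 and 4.21 at 40 mM. H2AC19 (chr1:149851061-149851624, plus) stood at 3.28, 4.19 and 3.96 FPKM at 0 mM, with 2.52, 2.57 and 3.04 at 20 mM and 6.25, 5.30 and 4.08 at 40 mM. The 20 mM libraries lay below all at 0 mM and 40 mM for both, and replicate 3 of 40 mM overlapped the 0 mM libraries. At 40 mM against 20 mM the log2 fold change was 0.90 ± 0.19 for H2AC18 (adjusted p = 0.00552) and 0.91 ± 0.19 for H2AC19 (adjusted p = 0.00505), and no alternative that tested them ended these calls. Against 0 mM the 40 mM libraries had 0.45 ± 0.19 (adjusted p = 0.0584) and 0.41 ± 0.18 (adjusted p = 0.0771), and without replicate 3 of 40 mM both passed, at 0.59 (adjusted p = 0.0162) and 0.56 (adjusted p = 0.02). At 20 mM against 0 mM they had -0.45 ± 0.19 (adjusted p = 0.0974) and -0.49 ± 0.19 (adjusted p = 0.0672), and H2AC19 passed without replicate 3 of 40 mM (adjusted p = 0.0348). The pair cannot be counted as separate genes: all 549 bases of the longest H2AC18 transcript are found in H2AC19. How reads that align to both were assigned is given nowhere in the sources used here. H2AC20 (chr1:149886918-149887411, plus), a neighbouring H2A gene, stood at 1.20, 2.45 and 0.645 FPKM at 0 mM, with 1.20, 1.97 and 2.23 at 20 mM and 2.24, 0.742 and 0.516 at 40 mM. Its libraries of 1 dose differed more than the means of the doses did.

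The less abundant genes of chromosome 1 were tested with a lower threshold, a mean of at least 0.1 FPKM, which took in 20533 genes and all 11 clustered genes of that chromosome. In this fit 4 of the 11 were higher at 40 mM against 0 mM, beside 20.8% of all genes, and 7 of the 11 were higher at 40 mM against 20 mM, beside 8.62%. By edgeR 0 were lower in either comparison, beside 20.0% and 9.48% of all genes, also at an unadjusted p under 0.05 (0). At 20 mM against 0 mM 1 was lower, beside 9.32%, and 0 were higher, beside 9.98% (0 at an unadjusted p under 0.05). Of the 39 clustered genes of chromosome 6 in the same fit, 1 was higher and 1 lower at 40 mM against 0 mM, 1 was higher at 40 mM against 20 mM, and 5 were lower at 20 mM against 0 mM. The 7 chromosome 1 genes are H2AC18, H2AC19, H2BC18 and the pairs H3C14 with H3C15 and H4C14 with H4C15, so no more than 4 sets of reads stand behind them. The 4 higher at 40 mM against 0 mM are the H3 and H4 pairs alone, which cannot be counted as separate genes either. Without replicate 3 of 40 mM, 6 of the 11 were higher at 40 mM against 0 mM, beside 20.4% of all genes, and 7 at 40 mM against 20 mM, beside 9.37%, while those of chromosome 6 were 0 and 1. Those 6 are H2AC18 with H2AC19, H3C14 with H3C15 and H4C14 with H4C15, again pairs and not separate genes.

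H3C14 (chr1:149839538-149841193), an H3 gene, had 30, 28 and 33 counts at 0 mM, with 26, 29 and 37 at 20 mM and 77, 74 and 55 at 40 mM. H3C15, whose 1656-base transcript is identical to that of H3C14, had 30, 26 and 31 counts at 0 mM, with 26, 28 and 42 at 20 mM and 80, 73 and 51 at 40 mM. Every 40 mM library of both was above every other library. The log2 fold change at 40 mM against 0 mM was 1.16 ± 0.27 (adjusted p = 0.00472) for H3C14 and 1.21 ± 0.29 (adjusted p = 0.00613) for H3C15, and at 40 mM against 20 mM it was 1.13 ± 0.27 (adjusted p = 0.0137) and 1.05 ± 0.29 (adjusted p = 0.0276). H4C14 (chr1:149832659-149839767), an H4 gene, had 144, 106 and 90 counts at 0 mM, with 82, 109 and 126 at 20 mM and 186, 210 and 166 at 40 mM. Its near copy H4C15, which holds all 583 bases of the longest protein-coding H4C14 transcript, had 134, 122 and 132 counts at 0 mM, with 86, 108 and 125 at 20 mM and 194, 226 and 174 at 40 mM. For these too the 40 mM libraries were above all others. The log2 fold changes were 0.72 ± 0.23 (adjusted p = 0.0259) for H4C14 and 0.60 ± 0.19 (adjusted p = 0.022) for H4C15 at 40 mM against 0 mM, and 0.80 ± 0.23 (adjusted p = 0.0322) and 0.87 ± 0.19 (adjusted p = 0.00869) at 40 mM against 20 mM. H3C14 and H4C14 share 230 bases on opposite strands, as do H3C15 and H4C15, and the sources used here do not name the strand setting of the counting. H2BC18 (chr1:149782689-149812373), an H2B gene, had 47, 67 and 111 counts at 0 mM, with 29, 40 and 66 at 20 mM and 135, 107 and 111 at 40 mM. It was higher at 40 mM against 20 mM by 1.37 ± 0.36 (adjusted p = 0.0237). H2BC18 was not called at 40 mM against 0 mM (0.64 ± 0.35, adjusted p = 0.172) or at 20 mM against 0 mM (-0.72 ± 0.36, adjusted p = 0.202).

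Chromosome 1 took 24.2% ± 3.4 of the counts of all clustered genes at 0 mM, 25.9% ± 4.7 at 20 mM and 33.4% ± 1.6 at 40 mM (SD, n = 3 each). In replicate order the share was 20.5%, 25.0% and 27.3% at 0 mM and 21.1%, 25.9% and 30.6% at 20 mM. At 40 mM it was 34.0%, 31.5% and 34.6%. It thus rose with replicate number at 0 and 20 mM and not at 40 mM, and the cause was not tested. The lowest 40 mM library, at 31.5%, stood above the highest at 20 mM, at 30.6%, and above the highest at 0 mM, at 27.3%. On chromosome 6 the fit with the lower threshold also called H1-4, the linker histone H1.4, higher at 40 mM against 0 mM, with 17, 28 and 24 counts at 40 mM beside 11, 9 and 4 at 0 mM (1.51 ± 0.49, adjusted p = 0.0281), a call that ended without replicate 3 of 40 mM (1.41, adjusted p = 0.0672). H2AC11, an H2A gene, was lower at 20 mM against 0 mM with 24, 15 and 29 counts at 20 mM beside 70, 55 and 47 at 0 mM (-1.32 ± 0.40, adjusted p = 0.0404). H3C13 on chromosome 1, an H3 gene, was lower in the same comparison with 6, 3 and 4 counts at 20 mM beside 12, 10 and 32 at 0 mM (-2.01 ± 0.62, adjusted p = 0.0438).

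The spread between libraries differed by class. The biological coefficient of variation that edgeR estimated, the relative spread of a gene between libraries of a dose beyond counting error, had a median of 0.18 over the 10 clustered genes (0.154 to 0.459, the highest for H2AC20) and 0.065 over the 7 replacement genes, beside 0.071 over all genes tested. A change of a given size was therefore harder to call in a clustered gene than in a replacement gene. Class and level go together here: H3-2, the least abundant replacement gene tested, had the highest value of its class, 0.124. Genes of like level were not compared, so the part of level in this spread was not tested.

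Noncoding RNAs with no poly(A) tail of their own were looked at beside the clustered genes, as a sign of how the capture went. A list of 20 names of such RNAs (7SK, 7SL, RMRP, spliceosomal and Y RNAs among them) matched 217 rows. Only 82 to 97 of these rows had a count in a given library. Together the rows took 10.2, 8.43 and 6.76 CPM at 0 mM, with 8.20, 8.07 and 5.82 at 20 mM and 12.1, 13.5 and 8.84 at 40 mM. Thus 2 of the 40 mM libraries were the highest of the 9, and the third overlapped the other doses. Of the 7 such rows tested, 1 was higher at 20 mM against 0 mM, 2 were higher at 40 mM against 0 mM and 1 was higher at 40 mM against 20 mM, with 0 lower in each (0 by DESeq2 and 0 at an unadjusted p under 0.05). DESeq2 called 0, 1 and 1 of them higher. Over all genes tested, edgeR called 16.3%, 28.8% and 14.3% higher in these comparisons and 15.2%, 27.4% and 15.1% lower. Beside those shares, the counts out of 7 are no result about such RNAs. The clearest was RN7SK, the RNA that holds the elongation factor P-TEFb inactive, with a log2 fold change of 3.48 ± 0.43 (adjusted p = 5.09e-05) at 40 mM against 0 mM. Whether capture of RNAs without tails has a part in the clustered genes' values was not tested.

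Genes that make and process clustered histone messages were mostly lower where they changed, as were those of the cleavage and decay lists given below. Over all genes tested, 16.3% were higher and 15.2% lower at 20 mM against 0 mM. At 40 mM the shares were 28.8% and 27.4% against 0 mM, and 14.3% and 15.1% against 20 mM. Of 27 tested genes of transcription and 3′ processing, 3 were higher and 7 lower at 20 mM against 0 mM, 3 higher and 14 lower at 40 mM against 0 mM, and 0 higher and 8 lower at 40 mM against 20 mM (0 higher by DESeq2, 1 at an unadjusted p under 0.05), with medians of -0.07, -0.15 and -0.09. SLBP, which binds the stem-loop, averaged 46.0 ± 1.1 FPKM at 0 mM, 39.2 ± 0.8 at 20 mM and 34.3 ± 0.8 at 40 mM (SD, n = 3 each). It fell, with a log2 fold change of -0.23 ± 0.04 (adjusted p = 0.00188) at 20 mM against 0 mM and of -0.46 ± 0.04 (adjusted p = 6.17e-06) at 40 mM against 0 mM. CPSF3, the endonuclease that cuts histone and other pre-mRNAs, fell at 40 mM against 0 mM, with a log2 fold change of -0.53 ± 0.04 (adjusted p = 2.78e-06), CCNE2, a cyclin E that starts S phase with CDK2, with -0.95 ± 0.09 (adjusted p = 5.96e-06) and CDK9, the kinase of P-TEFb, with -0.60 ± 0.06 (adjusted p = 1.17e-05).

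General cleavage and polyadenylation factors had 1 higher and 4 lower of 18 at 20 mM against 0 mM, 3 and 10 at 40 mM against 0 mM, and 3 and 6 at 40 mM against 20 mM. Their medians were -0.06, -0.16 and -0.07 in these comparisons, near those of the transcription and 3′ processing list. Over all genes tested, the shares higher and lower were 16.3% and 15.2%, 28.8% and 27.4%, and 14.3% and 15.1%. With so few factors these counts are no result about the list. CSTF3, a scaffold of the cleavage stimulation factor, fell, with a log2 fold change of -0.76 ± 0.06 (adjusted p = 3.02e-06) at 40 mM against 0 mM, and PAPOLG, a poly(A) polymerase, rose by 0.57 ± 0.06 (adjusted p = 9.77e-06). The same holds for genes of histone mRNA decay, with medians of -0.14, -0.16 and -0.05. They had 2 higher and 5 lower of 14 at 20 mM against 0 mM, 4 and 8 at 40 mM against 0 mM, and 2 and 4 at 40 mM against 20 mM. Among them the exonuclease genes DIS3 and XRN2 fell at 40 mM against 0 mM, with a log2 fold change of -0.43 ± 0.04 (adjusted p = 5.32e-06) and -0.37 ± 0.04 (adjusted p = 1.98e-05), and SMG1, a kinase of nonsense-mediated decay, rose by 0.40 ± 0.05 (adjusted p = 4.96e-05).

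Histone chaperones and variant exchange factors had 3 higher and 16 lower of 30 at 20 mM against 0 mM, 6 and 19 at 40 mM against 0 mM, and 3 and 12 at 40 mM against 20 mM, with medians of -0.14, -0.19 and -0.09. Over all genes tested, the shares higher and lower were 16.3% and 15.2%, 28.8% and 27.4%, and 14.3% and 15.1%. Between 40 mM and 0 mM the nucleolar chaperone NPM1 fell, with a log2 fold change of -0.72 ± 0.03 (adjusted p = 4.3e-08), SUPT16H, a subunit of the FACT complex, with -0.72 ± 0.04 (adjusted p = 1.15e-07), and ANP32E, which takes H2A.Z off chromatin, with -0.68 ± 0.05 (adjusted p = 2.61e-06). Genes of S phase DNA synthesis were the most uniform list. Of 34, 22 were lower at 20 mM against 0 mM, beside 15.2% of all genes. At 40 mM 30 were lower against 0 mM, beside 27.4%, and 26 against 20 mM, beside 15.1%. The medians of the list were -0.20, -0.47 and -0.26. No gene of it was called higher by edgeR or DESeq2 in any comparison, with 0 at an unadjusted p under 0.05, and 1 was called higher at 20 mM and 1 at 40 mM against 0 mM without replicate 3 of 40 mM. TYMS, thymidylate synthase, fell, with a log2 fold change of -1.08 ± 0.06 (adjusted p = 2.81e-07), MCM5, a subunit of the replicative helicase, with -0.86 ± 0.04 (adjusted p = 1.3e-07) and RRM2, a subunit of ribonucleotide reductase, with -0.55 ± 0.04 (adjusted p = 6.31e-07) at 40 mM against 0 mM.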

How the data were processed

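Per the labels' protocols, TRIzol RNA from A375 cells was captured on oligo(dT) beads, made into dUTP strand-marked libraries and sequenced from both ends. The authors deposited 1 table with whole-number counts and FPKM values per gene and library; per the file headers neither was pooled. The submitters' processing notes name StringTie 2.1.6 without its role, and the sources used here name no aligner, counter, genome build, annotation or strand setting. Of the table's 37118 identifiers 35955 are in GENCODE 29, and 60.3% of the 37118 have the same start and end there. Of the 72 histone genes 70 are in GENCODE 29, and 32 (44.4% of the 72) have the same start and end. Coordinates of genes are those of the deposited table, and those of printed sequences are GRCh38. The authors' counting could split reads between near-identical histone copies.

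Counts were tested with edgeR 4.0.16 in R 4.3.3 (quasi-likelihood test, TMM scaling, all 9 libraries in 1 fit, Benjamini-Hochberg adjustment) on the 12394 genes with a mean of at least 1 FPKM. Alternatives were other filters (none, 5 and 0.1 FPKM), scaling by medians of ratios or by library totals, DESeq2 1.42.0, limma 3.58.1 on log2(FPKM + 1) and log2(FPKM + 0.1), only the 6 libraries compared, a replicate block, and leaving out each library. The tests were checked on simulated data. The members and gene lists were chosen with earlier results of these data known. The members over 1 FPKM are given by library, apart from 1 that is counted but not reported here, and up to 6 of the most abundant members below it could be named. The 4 replacement genes under 1 FPKM, and H3C14, H3C15, H2BC18, H1-4, H2AC11 and H3C13, were named after their values were seen, the 6 clustered genes because the lower threshold called them. From each list up to 4 called genes with the smallest p could be named, and those described are taken from them. Replicate numbers were not used as pairs in the main fit. No 2 libraries were identical.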

Additional observations from a re-analysis of the deposited data

How the results depend on the processing

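Among the genes described, the calls that no alternative ended, where the gene was tested, were the fall of H1-10, H3-3A and H3-3B and the rise of H3-2 at 40 mM against 0 mM, H1-10, H3-2, H2AC18, H2AC19 and H2AC6 at 40 mM against 20 mM, and H2AC6 and H4C9 at 20 mM against 0 mM. Over the 51 log2 fold changes of the 17 genes, 821 alternative values kept direction and side of the threshold, 91 lost the call, 13 gained one and 17 changed sign, none of them called either way. With a threshold of 5 FPKM the calls over all genes were 2517 at 20 mM against 0 mM, 4245 at 40 mM against 0 mM and 2367 at 40 mM against 20 mM, where fewer genes were tested. Clustered genes called at 20 mM against 0 mM numbered 2 with no filter and 2 with 5 FPKM. At 40 mM against 0 mM they numbered 1 with 5 FPKM, 6 with 0.1 FPKM, 1 with DESeq2, 5 with either limma setting and 0 with only the 6 libraries. At 40 mM against 20 mM they numbered 5 with no filter, 0 with 5 FPKM and 8 with 0.1 FPKM. Replacement genes called at 20 mM against 0 mM numbered 0 with no filter, 0 with 0.1 FPKM, 1 with library totals and 0 with either limma setting, and at 40 mM against 20 mM they numbered 3 with no filter, library totals, either limma setting or only the 6 libraries. Except for filters that change the genes tested, and fits with fewer libraries, the cause was not tested. Alternatives chosen after seeing the data were a threshold of 0.1 FPKM without replicate 3 of 40 mM, with 6 clustered genes called at 40 mM against 0 mM and 8 at 40 mM against 20 mM, and the addition of H2AX, H2AJ, MACROH2A1 and MACROH2A2, whose older symbols carry the histone names searched, with 6, 9 and 8 replacement genes called in the 3 comparisons.

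When each library was left out in turn, the calls over all genes ranged from 2731 to 4966 at 20 mM against 0 mM, 6049 to 7135 at 40 mM against 0 mM and 2408 (without replicate 2 of 20 mM) to 4065 at 40 mM against 20 mM. Clustered genes ranged from 2 (without replicate 1 of 0 mM or replicate 2 or 3 of 20 mM) to 5, from 0 (without replicate 1 or 2 of 0 mM; 1 without replicate 1 or 3 of 20 mM) to 3, and 3 to 3. Replacement genes ranged from 0 (without any 0 mM library or replicate 2 or 3 of 20 mM; 1 without replicate 1 of 20 mM) to 2, 5 to 5, and 3 (without replicate 2 or 3 of 20 mM) to 6. The values that changed sign were those of H2AZ2 at 40 mM against 0 mM (0.0011 with 5 FPKM, 0.0275 with library totals, 0.0078 and 0.0080 with limma, -0.0552 to 0.0387 without 1 library), H2AC6 at 40 mM against 0 mM (-0.21 to 0.0862), H4C12 (-0.0874 to 0.22, -0.20 to 0.25 and -0.29 to 0.16 in the 3 comparisons), H3-2 at 20 mM against 0 mM (-0.082 to 0.0535), H2AC20 (-0.0070 to 0.96 at 20 mM and -1.18 to 0.31 at 40 mM against 0 mM) and H4C11 at 20 mM against 0 mM (-0.16 to 0.0907). Between doses, the correlation of same-numbered libraries ran from -0.042 to 0.222, and that of differently numbered libraries from -0.223 to 0.088. These ranges overlap and do not settle whether the numbers pair the libraries, and the main fit used no pairing. With the number as a replicate block, 4245, 7215 and 3982 genes were called in the 3 comparisons, with 4, 3 and 3 clustered and 2, 5 and 6 replacement genes, and no call of the 17 genes changed. Depth limits the clustered genes: 51 of 61 did not enter the test at 1 FPKM, and 20 had fewer than 100 counts over the 9 libraries together.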

Other observations

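A further 18 rows carry a histone name without a protein-coding transcript, and 3 of them had a mean of at least 1 FPKM. H2BC20P, an H2B pseudogene on chromosome 1 (chr1:149844498-149850937) between H2AC18 and H2AC19, stood at 1.26, 1.39 and 1.31 FPKM at 0 mM, with 1.19, 1.68 and 1.75 at 20 mM and 2.08, 2.04 and 2.44 at 40 mM. All 40 mM libraries were above all others, and edgeR called it higher at 40 mM against 0 mM by 0.70 ± 0.14 (adjusted p = 0.00154) and at 40 mM against 20 mM by 0.47 ± 0.14 (adjusted p = 0.0271). Without replicate 3 of 40 mM these were 0.61 (adjusted p = 0.00441) and 0.38 (adjusted p = 0.0665). H2BC19P, its overlapping neighbour on the other strand, stood at 1.59, 1.38 and 1.38 FPKM at 0 mM, with 1.44, 1.57 and 1.82 at 20 mM and 1.65, 1.80 and 2.66 at 40 mM and was not called (0.46 ± 0.18, adjusted p = 0.0517, at 40 mM against 0 mM). Without replicate 3 of 40 mM this value was 0.22 (adjusted p = 0.232). H1-9P, a linker histone pseudogene on chromosome 17, stood between 3.63 and 4.89 FPKM and was not called in any comparison.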
